A study of Homo sapiens with 56 samples.

Results

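The genes described here make cholesterol and fatty acids, move sterol inside the cell, or set how much of these lipids a cell makes. They were chosen by name, as 30 symbols, and each gene was read on 1 probe set, the one annotated to that symbol alone whose mean level was highest. Of the 30, 27 were measured, out of 11963 genes on the array. CYP51A1 and FADS1 were represented only by probe sets that carry several gene symbols and were not used, and FDFT1 was not analysed here. The measured genes fell into 6 mevalonate steps (HMGCS1, MVK, PMVK, MVD, IDI1 and FDPS), 9 squalene and sterol steps (SQLE, LSS, TM7SF2, MSMO1, NSDHL, HSD17B7, EBP, SC5D and DHCR7), 5 regulators (INSIG1, INSIG2, SREBF1, SREBF2 and SCAP), 5 genes of fatty acid synthesis (ACLY, ACACA, FASN, SCD and FADS2), the lysosomal sterol transporter NPC1, and ACAT2, the cytosolic enzyme that makes acetoacetyl-CoA for the mevalonate route.

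RNA came from PEO1 and PEO4, established lines of high-grade serous ovarian carcinoma that express estrogen receptor alpha, and was hybridised to 56 Affymetrix arrays. Every group, the untreated cells included, had first spent 3 days without hormone in charcoal-stripped serum. In each line 4 arrays were made at 0 h, before treatment, and 4 at 3 h for each of 6 treatments: E2 (estradiol) at 1 nM, ICI (fulvestrant) at 1 µM, 4OHT (4-hydroxytamoxifen) at 1 µM, each antagonist together with E2, and vehicle, which was ethanol. Charcoal stripping also takes lipids out of serum, and this condition was common to all 14 groups. Whether the 4 arrays of a group came from separate cultures is not stated, so p-values measure only the spread between these arrays, which may be technical.

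Values are log2 expression levels made by the authors with RMA, so a difference of 1 is a 2-fold change. Medians of PEO1 arrays ranged from 7.41 to 7.49 and those of PEO4 arrays from 7.85 to 7.92, so each line was treated as its own normalized set, and no level was compared between lines or between genes. Of the markers of serous carcinoma and epithelium, PAX8 averaged 10.96 in PEO1 and 11.94 in PEO4, and WT1 11.47 and 12.68. The mean of that 9-gene list ranged from 11.93 to 12.06 over the PEO1 groups and from 12.18 to 12.29 over the PEO4 groups. Over the groups of PEO1 and of PEO4 the mean of 5 hepatocyte markers ranged from 5.86 to 5.98 and from 7.09 to 7.17, that of 4 adipocyte markers from 5.09 to 5.16 and from 5.65 to 5.72, and that of 4 fibroblast markers from 5.78 to 5.89 and from 6.88 to 6.99. The 2 leukocyte markers measured ranged from 4.98 to 5.13 and from 5.71 to 5.88, and 3 endothelial markers from 5.20 to 5.35 and from 5.85 to 5.99. Single markers lay apart from their list mean. The hepatocyte list ran from ALB (4.05 in PEO1 and 4.55 in PEO4) to SERPINA1 (7.61 and 10.73), with TTR next below at 7.12 and 7.59. The fibroblast list ran from LUM (2.49 and 6.24) to COL1A1 (8.27 and 8.42). RNA quality, read as the 3′ minus 5′ signal of the ACTB control probes, was even in PEO1 (-0.25 to 0.14) and uneven in PEO4, where it reached 3.41 on ICI replicate 1, 2.28 on 0 h replicate 4 and 1.74 on 4OHT+E2 replicate 4, against at most 1.07 on the other arrays.

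As background, cells sense cholesterol in the endoplasmic reticulum. There SCAP carries the precursors of the transcription factors SREBF1 and SREBF2 to the Golgi for activation when sterol is scarce, and INSIG1 and INSIG2 hold SCAP back when sterol is plentiful. Active SREBF2 raises the mevalonate and sterol genes together with INSIG1 itself, SREBF1 acts more on fatty acid genes, and NPC1 releases cholesterol from lysosomes so that it can reach the sensor. Antiestrogens of the tamoxifen family are known to bind sterol-processing enzymes such as EBP.

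Promoters are shown for SREBF2 and for the 4 genes that 4OHT raised against vehicle or against E2. INSIG2 and HMGCS1 were raised only in the comparison against E2. Sterol control is usually read from the promoter, where SREBF2 works with the factor NF-Y. Sequences are from RefSeq, build GRCh38.p14, and give the 250 bases before the most upstream annotated start of each gene in the direction of transcription. Capitals mark matches on either strand to CCAAT, the NF-Y box (ATTGG where it lies on the other strand), and to TCACNCCAC, the core of the sterol regulatory element.

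INSIG1, chr7:155297628-155297877, plus strand: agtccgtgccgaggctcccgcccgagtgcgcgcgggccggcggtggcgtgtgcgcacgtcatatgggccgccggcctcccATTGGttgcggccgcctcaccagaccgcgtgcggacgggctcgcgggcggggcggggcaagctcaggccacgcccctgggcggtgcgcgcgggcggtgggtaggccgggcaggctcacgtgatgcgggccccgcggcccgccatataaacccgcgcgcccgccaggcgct

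HMGCS1, chr5:43313413-43313662, minus strand: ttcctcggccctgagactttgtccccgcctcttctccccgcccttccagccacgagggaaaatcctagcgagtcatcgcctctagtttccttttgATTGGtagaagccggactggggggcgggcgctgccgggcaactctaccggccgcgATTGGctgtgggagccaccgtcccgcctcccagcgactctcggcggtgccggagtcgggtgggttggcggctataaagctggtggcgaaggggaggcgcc

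NPC1, chr18:23586507-23586756, minus strand: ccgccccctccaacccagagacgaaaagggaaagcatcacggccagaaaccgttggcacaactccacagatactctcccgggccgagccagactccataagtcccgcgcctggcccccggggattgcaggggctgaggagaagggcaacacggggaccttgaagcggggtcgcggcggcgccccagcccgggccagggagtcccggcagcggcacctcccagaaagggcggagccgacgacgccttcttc

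INSIG2, chr2:118088221-118088470, plus strand: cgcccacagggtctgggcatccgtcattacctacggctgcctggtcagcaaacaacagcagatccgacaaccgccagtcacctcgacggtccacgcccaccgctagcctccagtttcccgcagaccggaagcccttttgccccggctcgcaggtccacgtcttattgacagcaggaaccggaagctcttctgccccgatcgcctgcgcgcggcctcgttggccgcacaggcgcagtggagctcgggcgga

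SREBF2, chr22:41832855-41833104, plus strand: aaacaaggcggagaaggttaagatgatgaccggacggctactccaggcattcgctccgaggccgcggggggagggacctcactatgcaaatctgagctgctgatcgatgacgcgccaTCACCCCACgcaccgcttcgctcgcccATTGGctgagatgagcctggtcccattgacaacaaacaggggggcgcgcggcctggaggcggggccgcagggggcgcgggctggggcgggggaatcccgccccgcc

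The table held promoters for 24 of the 27 measured genes. Over 300 bases, from 250 before a start to 50 after it, 19 of the 24 (79.2%) held a CCAAT on either strand, against 39.7% of 27305 genes. The sterol element core was matched in SREBF2 alone among the 24 (4.17%), against 1.39% of all genes. The motifs do not overlap each other in the SREBF2 promoter. These counts describe letters in a window and say nothing of which factor was bound there.

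Most of these genes moved little. The range of the 7 group means had a median of 0.16 over the 27 genes in each line, and was smallest for ACLY, the enzyme that supplies cytosolic acetyl-CoA (0.06 in PEO1 and 0.09 in PEO4). It was largest for INSIG1 in PEO1 (0.65) and for NPC1 in PEO4 (0.74), followed in PEO4 by INSIG1 (0.67). Within groups the arrays of a gene scattered with a median pooled SD of 0.07 in PEO1 and 0.09 in PEO4. A gene is called here when limma's Benjamini-Hochberg adjusted p, over all 11963 genes of the comparison, is under 0.05.

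**Figure D1:**
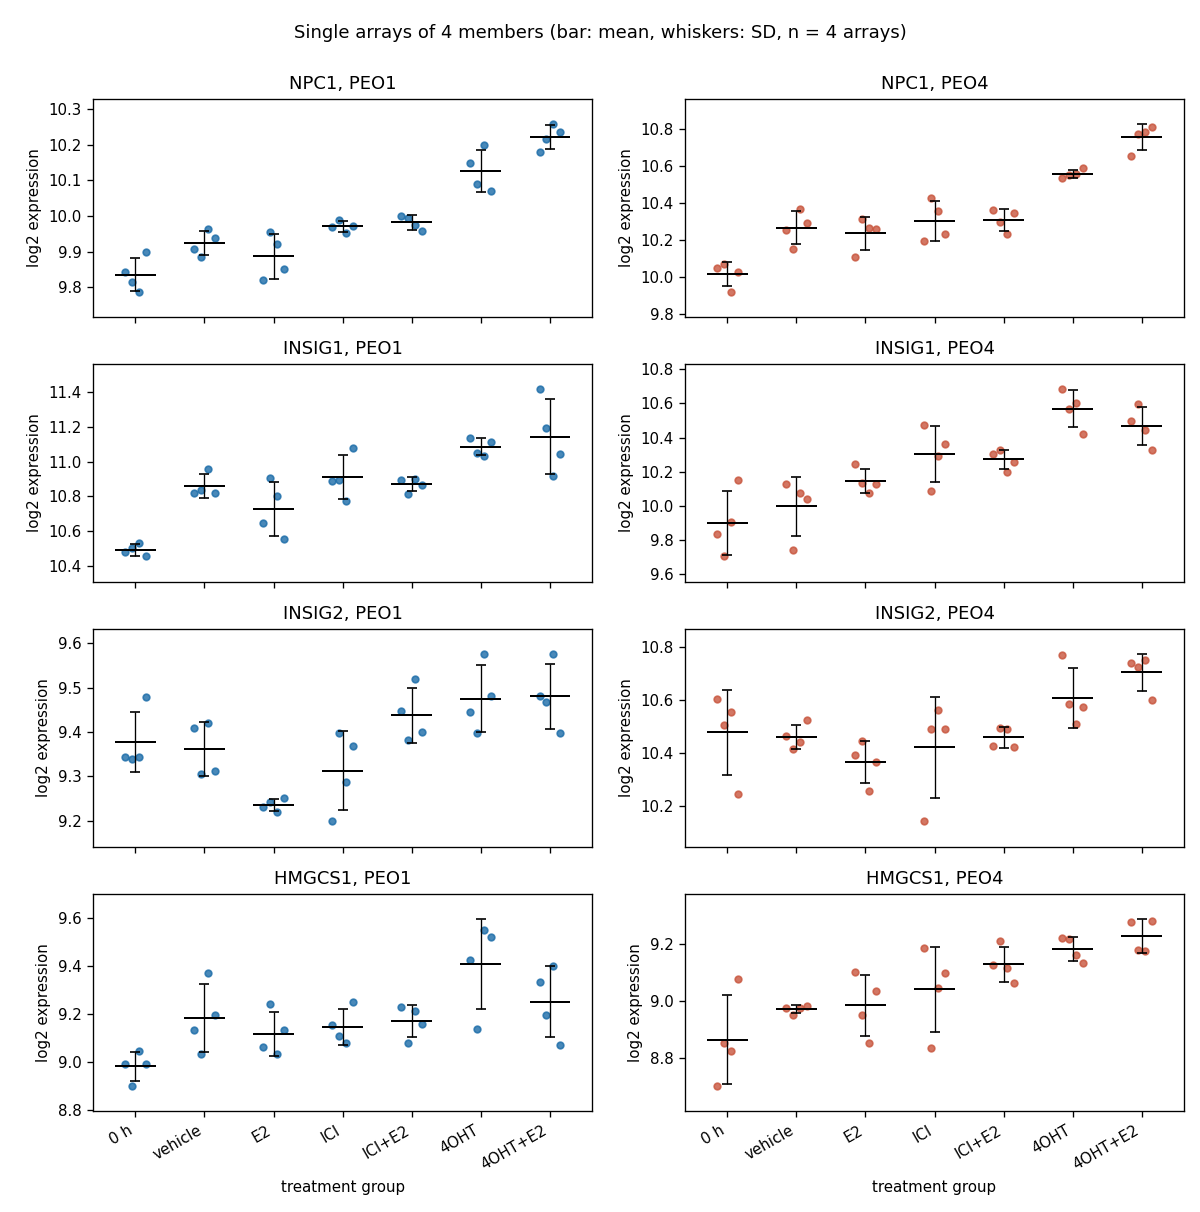
Log2 level of NPC1, INSIG1, INSIG2 and HMGCS1 (y axis) on each array, by treatment group (x axis), in PEO1 and PEO4. Points are single arrays, bars are group means and whiskers are SD, n = 4. NPC1 lies highest in the 4OHT and 4OHT+E2 groups of both lines, at 10.07 to 10.26 on the PEO1 arrays and 10.53 to 10.81 on the PEO4 arrays.

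The first comparison asks what 3 h in vehicle medium did by itself, against cells taken at 0 h. In PEO1, 4 of the 27 genes rose and 0 fell, where 5.79% of all genes were called higher and 1.64% lower. The 4 were INSIG1, the brake on SCAP, IDI1, which isomerises isopentenyl diphosphate, MSMO1, a sterol C4-demethylase, and DHCR7, a last step to cholesterol. At an unadjusted p under 0.05, 11 were higher and 0 lower, against 1688 and 653 of all 11963 genes. The median difference was 0.08 over the 27 and 0.02 over all genes, and 20 of the 27 were above 0, against 7021 of all 11963.

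INSIG1 stood at 10.48, 10.50, 10.53 and 10.46 on the PEO1 arrays at 0 h and at 10.82, 10.84, 10.96 and 10.82 in vehicle. Every vehicle array lay above every 0 h array, and the difference was 0.37 ± 0.08 (SE; 1.29-fold; adjusted p = 0.00362). IDI1 went from 11.80, 11.81, 11.76 and 11.76 to 11.97, 11.99, 12.04 and 12.00, a difference of 0.22 ± 0.04 (adjusted p = 0.000299) between groups that did not overlap. The IDI1 probe set is of a type that may also bind related transcripts. DHCR7 went from 9.81, 9.73, 9.78 and 9.78 to 9.93, 9.91, 9.94 and 9.96, again without overlap, with a difference of 0.16 ± 0.04 (adjusted p = 0.0098).

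MSMO1 moved from 9.92, 9.86, 10.10 and 10.09 to 10.22, 10.16, 10.36 and 10.24, a difference of 0.25 ± 0.07 (adjusted p = 0.0246). Its groups did not overlap, but the gap was narrow and the call was lost without vehicle C (adjusted p = 0.110), 0 h A (0.0805) or 0 h B (0.101), after quantile normalization (0.053) and with the compared groups alone (0.055). Quantile normalization left the other 3 called, while the calls over all genes went from 693 higher and 196 lower to 501 higher and 335 lower. Other sterol genes had positive differences that were not called: HMGCS1, which makes HMG-CoA, 0.20 (adjusted p = 0.141), EBP, the sterol isomerase, 0.16 (0.0895), NSDHL, a partner of MSMO1 in C4-demethylation, 0.13 (0.0746), and SQLE, squalene epoxidase, 0.12 (0.116). The 5 fatty acid genes lay between -0.04 and 0.05, with 0 called and 0 at an unadjusted p under 0.05.

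In PEO4 the same comparison called 1 gene higher and 1 lower, against 3.74% and 2.57% of all genes. At an unadjusted p under 0.05, 4 were higher and 2 lower, against 1034 and 1254 of all 11963 genes. The median difference was 0.01 over the 27 and -0.02 over all genes. NPC1 stood at 10.05, 10.07, 9.92 and 10.02 at 0 h and at 10.25, 10.15, 10.37 and 10.29 in vehicle, with no overlap (0.25 ± 0.06, adjusted p = 0.00538). HSD17B7, a sterol ketoreductase that can also convert estrone to estradiol, fell from 9.89, 9.84, 9.90 and 10.09 to 9.78, 9.60, 9.66 and 9.69, by 0.25 on the log2 scale (SE 0.05, adjusted p = 0.00372). The highest of its 0 h arrays was replicate 4, one of the arrays of poor RNA quality, and the groups did not overlap with or without it. HSD17B7 was read on its 1 probe set, which, like that of IDI1, is of a type that may also bind related transcripts. SQLE had a difference of 0.20 that missed the threshold (adjusted p = 0.054).

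The responses of the lines to 3 h in vehicle were tested against each other in one fit of all 56 arrays. HSD17B7 was the 1 gene of the 27 that differed, with a response lower in PEO4 by 0.28 ± 0.07 (adjusted p = 0.0141), where 1.36% of all genes were called lower in PEO4 and 1.03% higher. This call was lost without PEO4 0 h replicate 4 (-0.23, adjusted p = 0.068) or PEO1 vehicle C (-0.24, 0.0597). It rests on the same 1 probe set. The INSIG1 and MSMO1 responses, called in PEO1 alone, were not shown to differ between the lines: their differences were -0.27 and -0.25, each with an adjusted p of 0.347.

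E2 itself was compared with vehicle to ask whether these genes respond to estrogen within 3 h. The PEO1 arrays did register the hormone, since GREB1, a standard estrogen target, rose by 1.97 ± 0.09 in PEO1. In PEO4 the gene of smallest limma adjusted p over all genes was RASGRP1 (7.38e-15). None of the 27 genes was called in either line by limma, where 2.09% of all genes were called in PEO1 and 2.12% in PEO4. At an unadjusted p under 0.05, 3 were higher and 1 lower in PEO1, against 688 and 692 of all 11963 genes. In PEO4, 0 were higher and 1 lower at that threshold, against 671 and 395. The smallest adjusted p in PEO1 was that of ACACA, acetyl-CoA carboxylase, the committed step of fatty acid synthesis (0.13 ± 0.05, adjusted p = 0.244). In PEO4 it was that of SC5D, a late sterol desaturase (-0.15 ± 0.05, adjusted p = 0.222).

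In PEO1 the 95% intervals of the 27 E2 effects ran from -0.29 to 0.25, and in PEO4 from -0.27 to 0.33, with INSIG1 giving the lowest bound in PEO1 and the highest in PEO4. FASN, the fatty acid synthase, had differences of 0.12 and 0.11 (adjusted p = 0.362 and 0.732). The difference between the lines in the E2 response was called for 0 of the 27, against 0.493% of all genes.

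Fulvestrant alone, a steroidal antagonist that blocks the receptor and leads to its loss, called 0 of the 27 in either line by limma. In all, 0.134% of genes were called in PEO1 and 0.159% in PEO4. At an unadjusted p under 0.05 there were 0 higher and 1 lower in PEO1, against 163 and 395 of all 11963 genes. In PEO4 there were 3 higher and 1 lower at that threshold, against 1366 and 731. INSIG1 in PEO4 had the smallest adjusted p, with a difference of 0.31 ± 0.09 (adjusted p = 0.107). Its ICI arrays stood at 10.47, 10.09, 10.29 and 10.36 and its vehicle arrays at 10.13, 9.74, 10.08 and 10.04, so the groups overlapped. Its other probe sets had the opposite sign, at -0.14 and -0.16 (adjusted p = 0.561 and 0.421 among all probe sets). Leaving out ICI replicate 4 brought 1 gene past the threshold in PEO4. The difference between the lines in the ICI response was called for 0 of the 27, against 0.1% of all genes.

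4OHT, a triphenylethylene that binds the same receptor, gave most of the calls. Against vehicle it raised NPC1 in PEO1 and NPC1 and INSIG1 in PEO4. Against E2, with E2 present in both groups, it raised NPC1, INSIG1 and INSIG2 in both lines and HMGCS1 in PEO4. The comparisons without and with E2 rest on separate arrays, while E2, ICI and 4OHT were each set against the same vehicle arrays. The intervals of all 27 genes are plotted for both.

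**Figure D2:**
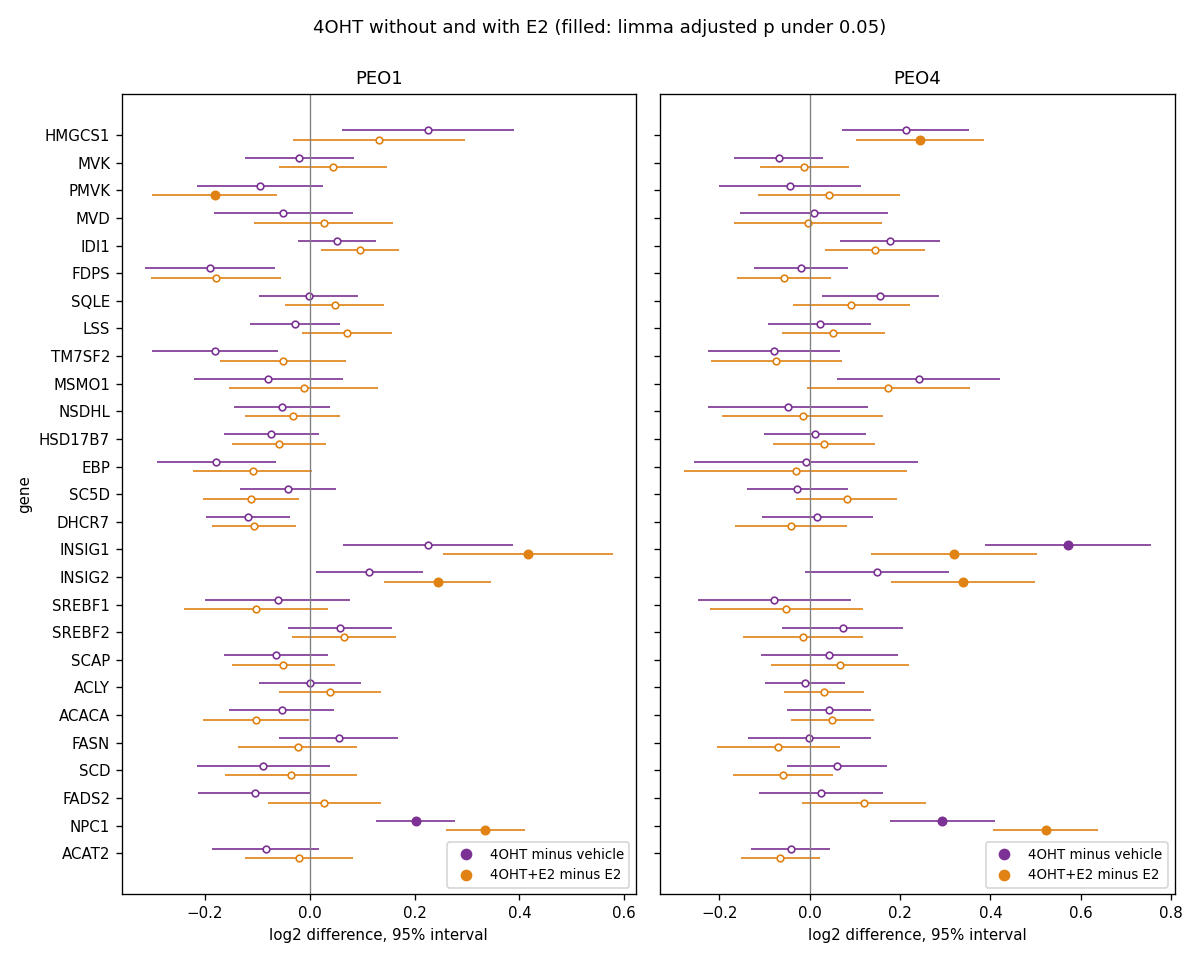
Log2 difference (x axis) of 4OHT minus vehicle and of 4OHT+E2 minus E2 for the 27 genes (y axis) in PEO1 and PEO4, with 95% intervals from limma; filled points have an adjusted p under 0.05. NPC1 is filled in both comparisons of both lines, and the 5 fatty acid genes are filled in none.

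In PEO1, 1 gene was called higher with 4OHT alone and 0 lower, against 1.92% and 4.83% of all genes. NPC1 stood at 9.91, 9.89, 9.96 and 9.94 in vehicle and at 10.15, 10.09, 10.20 and 10.07 with 4OHT. The groups did not overlap, and the difference was 0.20 ± 0.04 (1.15-fold, adjusted p = 0.000965). It had an adjusted p of 0.0541 when the fit held the compared groups alone. Without adjustment 4 of the 27 were higher and 4 lower at p under 0.05, against 597 and 2030 of all 11963 genes. The median was -0.05 over the 27 and -0.03 over all genes.

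INSIG1 in PEO1 stood at 10.82, 10.84, 10.96 and 10.82 in vehicle and at 11.14, 11.05, 11.03 and 11.11 with 4OHT, a difference of 0.23 ± 0.08 that was not called (adjusted p = 0.0851) although the arrays did not overlap. Both of its other probe sets gave differences of 0.28 and 0.26 that passed in a test of all probe sets (adjusted p = 0.00884 and 0.0118). HMGCS1 had a difference of 0.22 (adjusted p = 0.0902), with arrays at 9.13, 9.03, 9.37 and 9.20 in vehicle and 9.42, 9.14, 9.55 and 9.52 with 4OHT, which overlap.

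Several enzymes had negative differences in PEO1 that also missed the threshold: FDPS, which makes farnesyl diphosphate, -0.19 (adjusted p = 0.0556), EBP -0.18 (0.0504), TM7SF2, a sterol reductase, -0.18 (0.0606), and DHCR7 -0.12 (0.0684). The other probe set of DHCR7 passed among all probe sets, at -0.24 (adjusted p = 0.0106). The number called in PEO1 depended on single arrays, being 4 without 4OHT A, 2 without 4OHT B and 3 without 4OHT D. It also depended on scaling. After quantile normalization 4 genes were called, all higher (HMGCS1, INSIG1, INSIG2 and NPC1), and the calls over all genes went from 230 higher and 578 lower to 312 higher and 277 lower.

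In PEO4, 2 genes were called higher with 4OHT alone and 0 lower, against 2.78% and 2.75% of all genes. INSIG1 stood at 10.13, 9.74, 10.08 and 10.04 in vehicle and at 10.68, 10.57, 10.60 and 10.42 with 4OHT. Each 4OHT array lay above each vehicle array, and the difference was 0.57 ± 0.09 (1.49-fold, adjusted p = 0.000158). Its other probe sets gave 0.45 and 0.16 (adjusted p = 0.0462 and 0.49 among all probe sets). NPC1 went from 10.25, 10.15, 10.37 and 10.29 to 10.53, 10.55, 10.56 and 10.59, without overlap (0.29 ± 0.06, adjusted p = 0.0018). Counting unadjusted p under 0.05, 6 were higher and 0 lower, against 1124 and 1130 of all 11963 genes. The median was 0.02 over the 27 and 0.00 over all genes.

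The other 4 genes with an unadjusted p under 0.05 in PEO4 were among the 6 mevalonate and 9 squalene and sterol steps measured. They were IDI1 (0.18, adjusted p = 0.0512), HMGCS1 (0.21, 0.0703), MSMO1 (0.24, 0.113) and SQLE (0.16, 0.162). Other probe sets had the same sign and did not pass among all probe sets: IDI1 0.07 (adjusted p = 0.508), HMGCS1 0.17 (0.677), and SQLE 0.13 (0.326) and 0.20 (0.858). MSMO1 has 1 probe set. The IDI1 arrays stood at 11.36, 11.43, 11.46 and 11.37 in vehicle and at 11.57, 11.58, 11.55 and 11.63 with 4OHT, and those of SQLE at 11.76, 11.82, 11.76 and 11.76 against 11.94, 11.94, 11.88 and 11.96. In both genes the groups did not overlap. When the PEO4 arrays of poor RNA quality, 0 h replicate 4 and ICI replicate 1, were left out of the fit, 6 genes were called, these 4 with INSIG1 and NPC1. The same 6 were called with the ACTB 3′ minus 5′ value as a covariate, an alternative chosen after seeing the data. That value was 0.24 to 0.57 on the PEO4 vehicle arrays.

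The difference between the lines in the response to 4OHT was called for 0 of the 27 by limma, where 1.26% of all genes were called. At an unadjusted p under 0.05, 4 were higher in PEO4 and 0 lower, against 1213 and 528 of all 11963 genes. Of the 27 differences 22 were above 0, against 7116 of all 11963. The median was 0.08 over the 27 and 0.03 over all genes. INSIG1 had a difference of 0.35 ± 0.12 (adjusted p = 0.147) and MSMO1 one of 0.32 (0.154). The intervals reached from -0.23 to 0.59.

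With E2 present in both groups, 4OHT called 3 genes higher and 1 lower in PEO1, against 4.26% and 8.48% of all genes. NPC1 stood at 9.82, 9.96, 9.92 and 9.85 with E2 and at 10.18, 10.22, 10.26 and 10.24 with 4OHT+E2, clearly apart (0.33 ± 0.04, 1.26-fold, adjusted p = 2.94e-07). INSIG1 stood at 10.65, 10.91, 10.80 and 10.56 with E2 and at 11.42, 11.19, 10.92 and 11.05 with 4OHT+E2 (0.42 ± 0.08, adjusted p = 0.000701). The lowest 4OHT+E2 array of INSIG1 was only just above the highest E2 array, and its adjusted p was 0.0594 when the fit held the compared groups alone.

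INSIG2, the second sterol brake, stood at 9.23, 9.24, 9.22 and 9.25 with E2 in PEO1 and at 9.48, 9.47, 9.58 and 9.40 with 4OHT+E2. The E2 arrays were close together and lay below all 4OHT+E2 arrays (0.24 ± 0.05, adjusted p = 0.00141). INSIG2 was not called with 4OHT against vehicle in either line. Its lowest group mean in each line was that of E2, 9.24 in PEO1 and 10.37 in PEO4. In PEO1 it was lower with E2 than in vehicle at an unadjusted p under 0.05 (limma adjusted p = 0.286). PMVK, phosphomevalonate kinase, was the gene that fell, from 8.95, 8.86, 8.89 and 8.97 to 8.59, 8.73, 8.76 and 8.86, by 0.18 on the log2 scale (SE 0.06, adjusted p = 0.0403), and its groups overlapped. That call was lost without E2 A (adjusted p = 0.083), E2 C (0.0687), E2 D (0.0907), 4OHT+E2 A (0.154) or 4OHT+E2 B (0.0872), and after quantile normalization (0.123). FDPS had a difference of -0.18 (adjusted p = 0.0514).

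In PEO4, 4 genes were called higher with 4OHT+E2 against E2 and 0 lower, against 3.58% and 2.16% of all genes. NPC1 had its widest separation here, from 10.11, 10.31, 10.26 and 10.26 with E2 to 10.65, 10.78, 10.79 and 10.81 with 4OHT+E2 (0.52 ± 0.06, 1.44-fold, adjusted p = 2.23e-07). INSIG2 went from 10.39, 10.45, 10.26 and 10.37 to 10.74, 10.73, 10.75 and 10.60, without overlap (0.34 ± 0.08, adjusted p = 0.00574). At an unadjusted p under 0.05, 5 were higher and 0 lower, against 1003 and 928 of all 11963 genes. The median was 0.03 over the 27 and 0.00 over all genes.

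INSIG1 in PEO4 went from 10.25, 10.13, 10.08 and 10.13 to 10.49, 10.60, 10.44 and 10.33 (0.32 ± 0.09, adjusted p = 0.0293). HMGCS1 went from 9.10, 8.95, 8.85 and 9.03 to 9.28, 9.18, 9.17 and 9.28 (0.24 ± 0.07, adjusted p = 0.0314). In both genes the 4OHT+E2 arrays lay above the E2 arrays, but each call depended on single arrays. INSIG1 was lost without E2 replicate 2 (adjusted p = 0.0566), 3 (0.0967) or 4 (0.0733), or without 4OHT+E2 replicate 1 (0.0703), 2 (0.117) or 3 (0.0533). HMGCS1 was lost without E2 replicate 2 (0.0692) or 3 (0.144), or without 4OHT+E2 replicate 1 (0.0904) or 4 (0.0917), with averaged probe sets (0.117) and with the compared groups alone (0.0537). Without E2 replicate 2, E2 replicate 3 or 4OHT+E2 replicate 1 the number called was 2.

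The difference between the lines in this response was called for 0 of the 27, against 1.97% of all genes, and the smallest adjusted p was that of NPC1 (0.19 ± 0.07, adjusted p = 0.136). Whether E2 altered the response to 4OHT was not tested. The effect of E2 with 4OHT in both groups was read from 4OHT+E2 minus 4OHT, a comparison added after seeing the data. It called 0 of the 27 in PEO1, where 0% of all genes were called, and 0 in PEO4, where 0.109% were. NPC1 in PEO4 had a difference of 0.20 (adjusted p = 0.269). These comparisons share the 4OHT and 4OHT+E2 arrays with those above.

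ICI with E2 was compared with E2 in the same way. In PEO1 it called 1 gene higher and 0 lower, against 0.97% and 1.53% of all genes. The gene was INSIG2, at 9.45, 9.38, 9.52 and 9.40 with ICI+E2 against the same E2 arrays as above, 9.23 to 9.25. The groups did not overlap (0.20 ± 0.05, adjusted p = 0.0203). The call was lost without E2 A (adjusted p = 0.054), E2 C (0.061), ICI+E2 A (0.0557) or ICI+E2 C (0.109). In PEO4, 0 were called, against 2.08% of all genes. At an unadjusted p under 0.05, 2 were higher and 0 lower, against 566 and 870 of all 11963 genes. Against ICI alone, ICI+E2 called 0 of the 27 in either line, against 0% of all genes in each.

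The antagonists were given at the same dose and time, 1 µM and 3 h, and were compared at that dose. Whether a difference between them holds at other doses was not tested. In structure they differ in that ICI is built on the steroid skeleton of estradiol and 4OHT is a triphenylethylene. There were 4 such pairs, without and with E2 in each line, each adjusted over all genes, and they share arrays with the comparisons above. NPC1 was higher with 4OHT than with ICI in all 4.

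**Figure D3:**
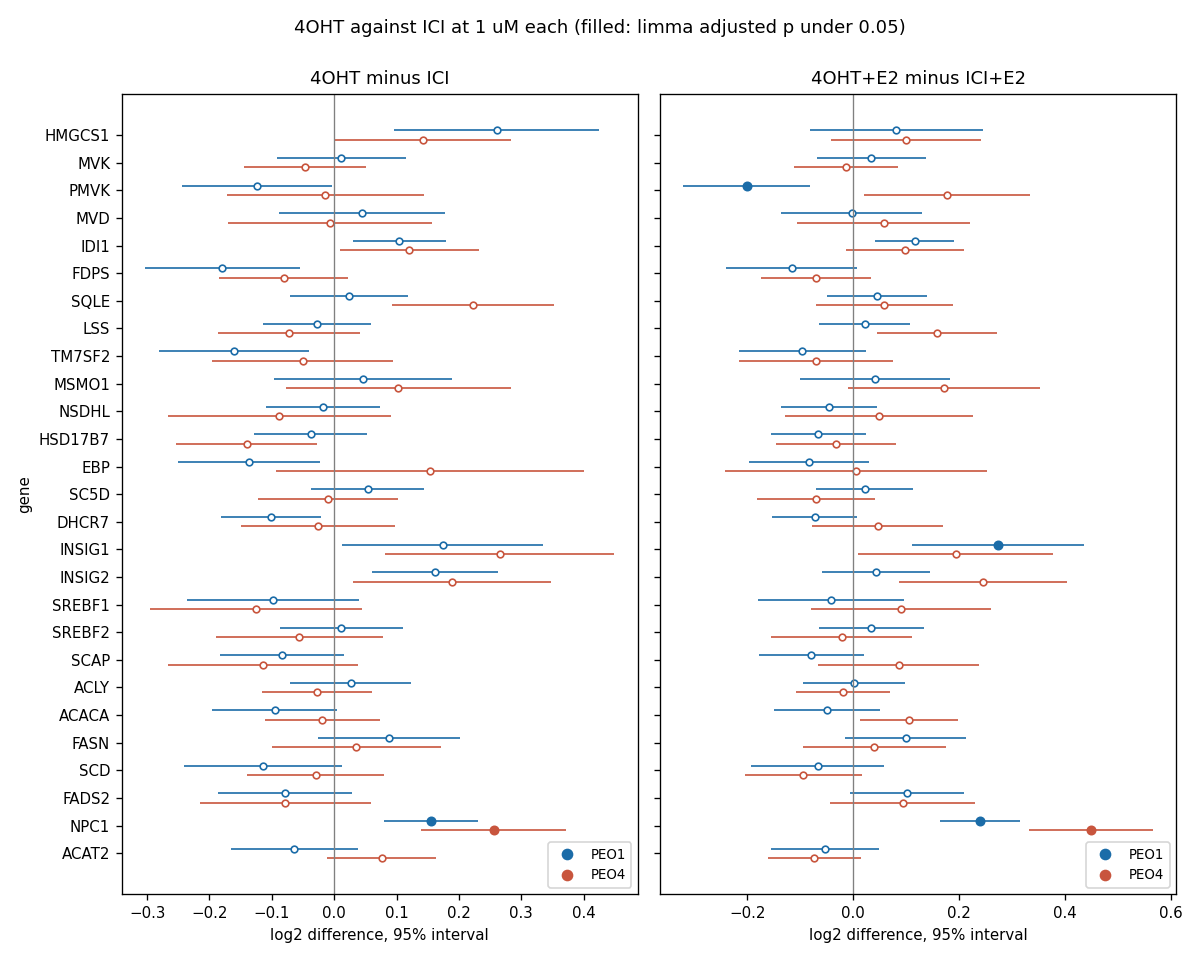
Log2 difference (x axis) of 4OHT minus ICI and of 4OHT+E2 minus ICI+E2 for the 27 genes (y axis), with PEO1 and PEO4 in separate colours and 95% intervals from limma. The NPC1 interval lies above 0 in all 4 pairs, from 0.08 to 0.23 in PEO1 without E2 and from 0.33 to 0.57 in PEO4 with E2.

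Without E2, NPC1 in PEO1 stood at 9.97, 9.99, 9.95 and 9.97 with ICI and at 10.15, 10.09, 10.20 and 10.07 with 4OHT, a difference of 0.16 ± 0.04 (adjusted p = 0.0143). It was the 1 gene called, against 1.69% of all genes called higher with 4OHT and 2.06% lower, and the groups did not overlap. The call was lost without 4OHT C (adjusted p = 0.0679), while 3 genes were called without 4OHT A and 2 without 4OHT B or ICI B. In PEO4, NPC1 stood at 10.19, 10.43, 10.36 and 10.23 with ICI and at 10.53, 10.55, 10.56 and 10.59 with 4OHT (0.26 ± 0.06, adjusted p = 0.0109). It was again the 1 gene called, against 1.25% higher and 1.08% lower, and all 4OHT arrays lay above all ICI arrays.

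That PEO4 call had an adjusted p of 0.0521 without ICI replicate 1, the array of poorest RNA quality. With ICI replicate 1 and 0 h replicate 4 both left out, 2 genes were called, and 3 and 2 were called without ICI replicate 2 and ICI replicate 4. In fits that held the compared groups alone, NPC1 had an adjusted p of 0.145 in PEO1 and 0.161 in PEO4. The intervals of the other 26 genes lay between -0.30 and 0.42 in PEO1, the upper bound being that of HMGCS1, and between -0.30 and 0.45 in PEO4, that of INSIG1. INSIG1 with 4OHT minus ICI was 0.17 in PEO1 (adjusted p = 0.22) and 0.27 in PEO4 (0.129), so on the probe set used it was not called. Its other probe sets read differently: among all probe sets both passed in PEO1, at 0.33 and 0.28 (adjusted p = 0.0035 and 0.012), and in PEO4 one passed, at 0.60 (0.0118), and one did not, at 0.32 (0.149).

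With E2, NPC1 in PEO1 stood at 10.00, 10.00, 9.98 and 9.96 with ICI+E2 and at 10.18, 10.22, 10.26 and 10.24 with 4OHT+E2 (0.24 ± 0.04, adjusted p = 0.000222). Another 2 genes were called: INSIG1 was higher by 0.27 ± 0.08 (adjusted p = 0.046) and PMVK was lower with 4OHT+E2 (-0.20 ± 0.06, adjusted p = 0.0479). In all, 1.55% of genes were higher and 2.64% lower. INSIG1 had ICI+E2 arrays at 10.90, 10.81, 10.90 and 10.87 and its lowest 4OHT+E2 array at 10.92. In both genes the groups did not overlap, and both calls were fragile.

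INSIG1 lost its call without any 1 array other than 4OHT+E2 C: its adjusted p was 0.09, 0.1, 0.0926 and 0.0712 without ICI+E2 A, B, C and D, and 0.149, 0.127 and 0.0506 without 4OHT+E2 A, B and D. PMVK lost it without ICI+E2 A (0.136), B (0.0922) or C (0.117), or 4OHT+E2 A (0.14) or B (0.111). Without ICI+E2 A, B or C or 4OHT+E2 A, NPC1 was the 1 gene called.

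In PEO4, NPC1 stood at 10.36, 10.29, 10.23 and 10.34 with ICI+E2 and at 10.65, 10.78, 10.79 and 10.81 with 4OHT+E2 (0.45 ± 0.06, 1.37-fold, adjusted p = 4.41e-06), with no overlap. It was the 1 gene called, against 3.01% higher and 1.44% lower. At an unadjusted p under 0.05, 6 were higher and 0 lower, against 1192 and 922 of all 11963 genes. INSIG2 had a difference of 0.25 (adjusted p = 0.0686). For the genes not called, the PEO1 intervals ran from -0.24 to 0.25 and the PEO4 intervals from -0.24 to 0.40.

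NPC1 has 1 further probe set on the array, with a mean level of 5.89 against 10.17 for the one used, and it was never called. For 4OHT+E2 minus E2 it had the opposite sign, at -0.13 ± 0.07 in PEO1 and -0.11 ± 0.11 in PEO4. For 4OHT+E2 minus ICI+E2 it gave -0.12 in PEO1 and 0.00 in PEO4. Without E2 it gave 0.13 in PEO1 and -0.08 in PEO4 for 4OHT minus vehicle. For 4OHT minus ICI it had the same sign as the one used, at 0.19 in PEO1 and 0.18 in PEO4. With the mean of both probe sets NPC1 kept 4 of its 9 calls, among them 4OHT alone in PEO1 and 4OHT+E2 minus E2 in PEO4. It lost the other 5, such as 4OHT alone in PEO4 (0.11, adjusted p = 0.376) and 4OHT+E2 minus E2 in PEO1 (0.10, adjusted p = 0.132). Over the 24 calls made within lines, 17 were of genes with other probe sets. Of those 22 probe sets, 18 gave the same sign, 9 were also called in that direction and 0 were called in the opposite one. The choice of probe set also hid signals. In 10 instances of a gene in a comparison where it was not called, 13 of its other probe sets passed among all probe sets, all with the sign of the one used. Those of INSIG1, and that of DHCR7 with 4OHT alone, are given above. With 4OHT+E2 against E2 in PEO1 the others were DHCR7 (-0.18, adjusted p = 0.033), EBP (-0.20, 0.033) and SCD with both -0.22 (0.0447) and -0.24 (0.0286). ACLY passed at 0.16 for vehicle against 0 h in PEO1 (adjusted p = 0.0228). SQLE passed in PEO4 at 0.30 for 4OHT+E2 against E2 (adjusted p = 0.00659) and at 0.26 against ICI+E2 (0.0258).

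**Figure D4:**
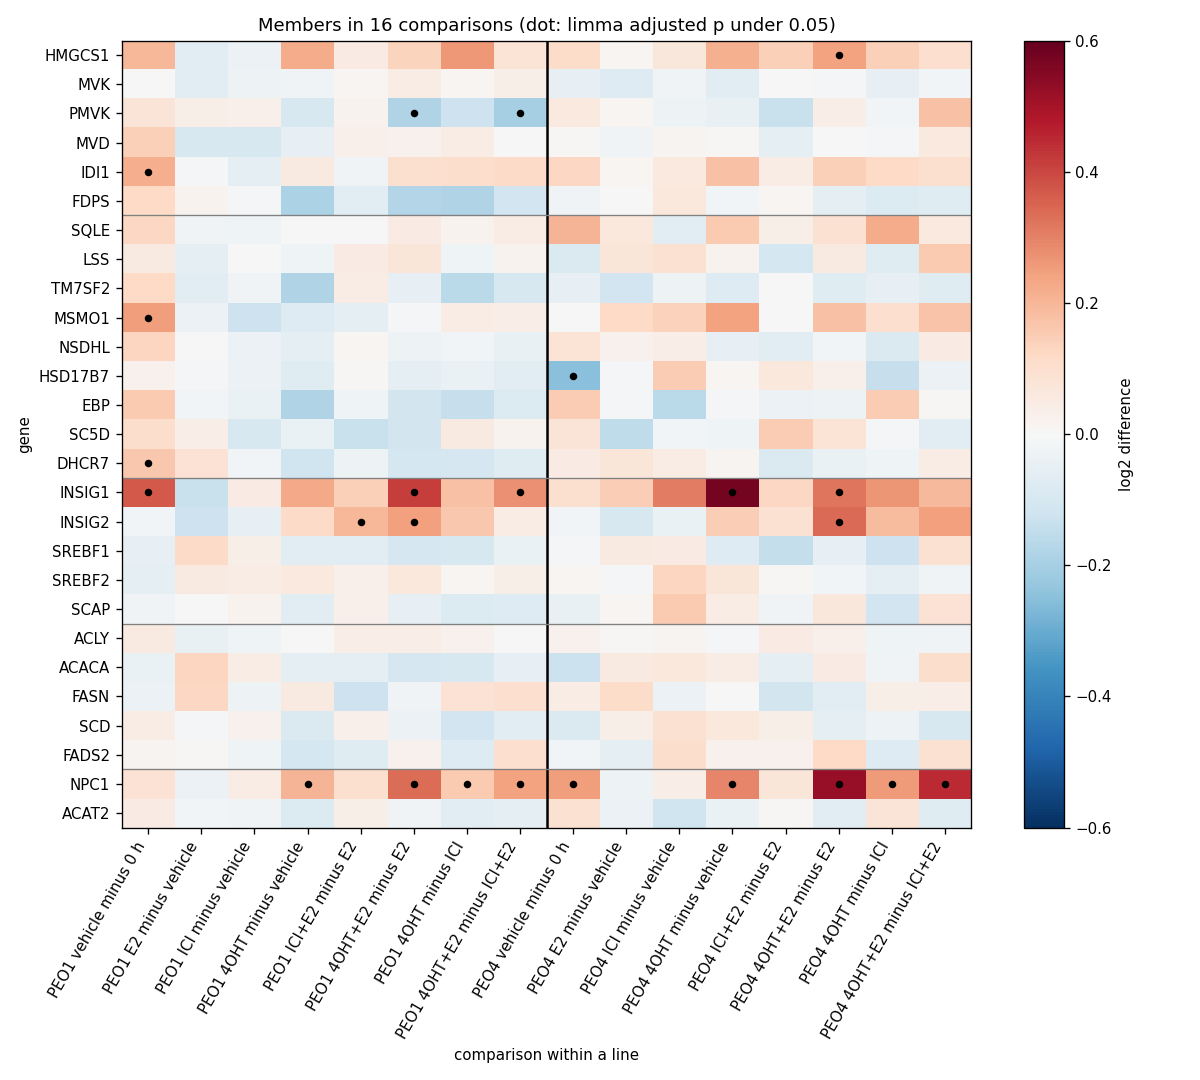
Log2 difference of the 27 genes (rows) in the 16 within-line comparisons (columns), on a colour scale from -0.6 to 0.6; a dot marks an adjusted p under 0.05. Dots gather in the rows of NPC1, INSIG1 and INSIG2, and the rows of ACLY, ACACA, FASN, SCD and FADS2 hold none.

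Among the 5 regulators, the brakes INSIG1 and INSIG2 were called and the other 3 were not. SREBF1 and SREBF2, the transcription factors, and SCAP, their escort, were called in 0 of the 16 within-line comparisons. With 4OHT alone SREBF2 differed from vehicle by 0.06 in PEO1 (adjusted p = 0.533) and by 0.07 in PEO4 (0.617). Their activation is a cleavage of protein, which an array does not measure.

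On the probe sets used, the fatty acid genes were called in 0 of the 16 comparisons too. With 4OHT alone, SCD, the stearoyl-CoA desaturase, gave a difference of -0.09 in PEO1 (adjusted p = 0.434) and 0.06 in PEO4 (0.612), and FASN gave 0.06 (0.617) and 0.00 (0.998). Of the mevalonate and sterol enzymes, MVK, MVD, FDPS, SQLE, LSS, TM7SF2, NSDHL, EBP and SC5D were likewise never called on these probe sets, and neither was ACAT2.

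Other genes of these pathways were read from lists of 18 sterol-handling and 20 fatty-acid-handling genes, of which 15 and 15 were measured. With 4OHT against vehicle, 0 of the 15 sterol-handling genes rose and 4 fell in PEO1, where 1.92% of all genes were called higher and 4.83% lower. In PEO4, 0 rose and 2 fell, against 2.78% and 2.75%. ABCA1, the pump that exports cholesterol from the cell, fell in both lines. In PEO1 it went from 7.31, 7.36, 7.44 and 7.36 in vehicle to 6.70, 6.97, 7.13 and 7.02 with 4OHT, by 0.42 on the log2 scale (SE 0.08, adjusted p = 0.00238). In PEO4 it went from 6.31, 6.30, 6.15 and 6.11 to 5.72, 5.82, 5.75 and 5.77, by 0.45 (SE 0.08, adjusted p = 0.00101). In neither line did the groups overlap. The ABCA1 signal was low, below the median of the array on each of these arrays. An alternative fit that left out the genes of lowest signal held no ABCA1 value in either line. Whether so low a signal follows the transcript was not tested.

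**Figure D5:**
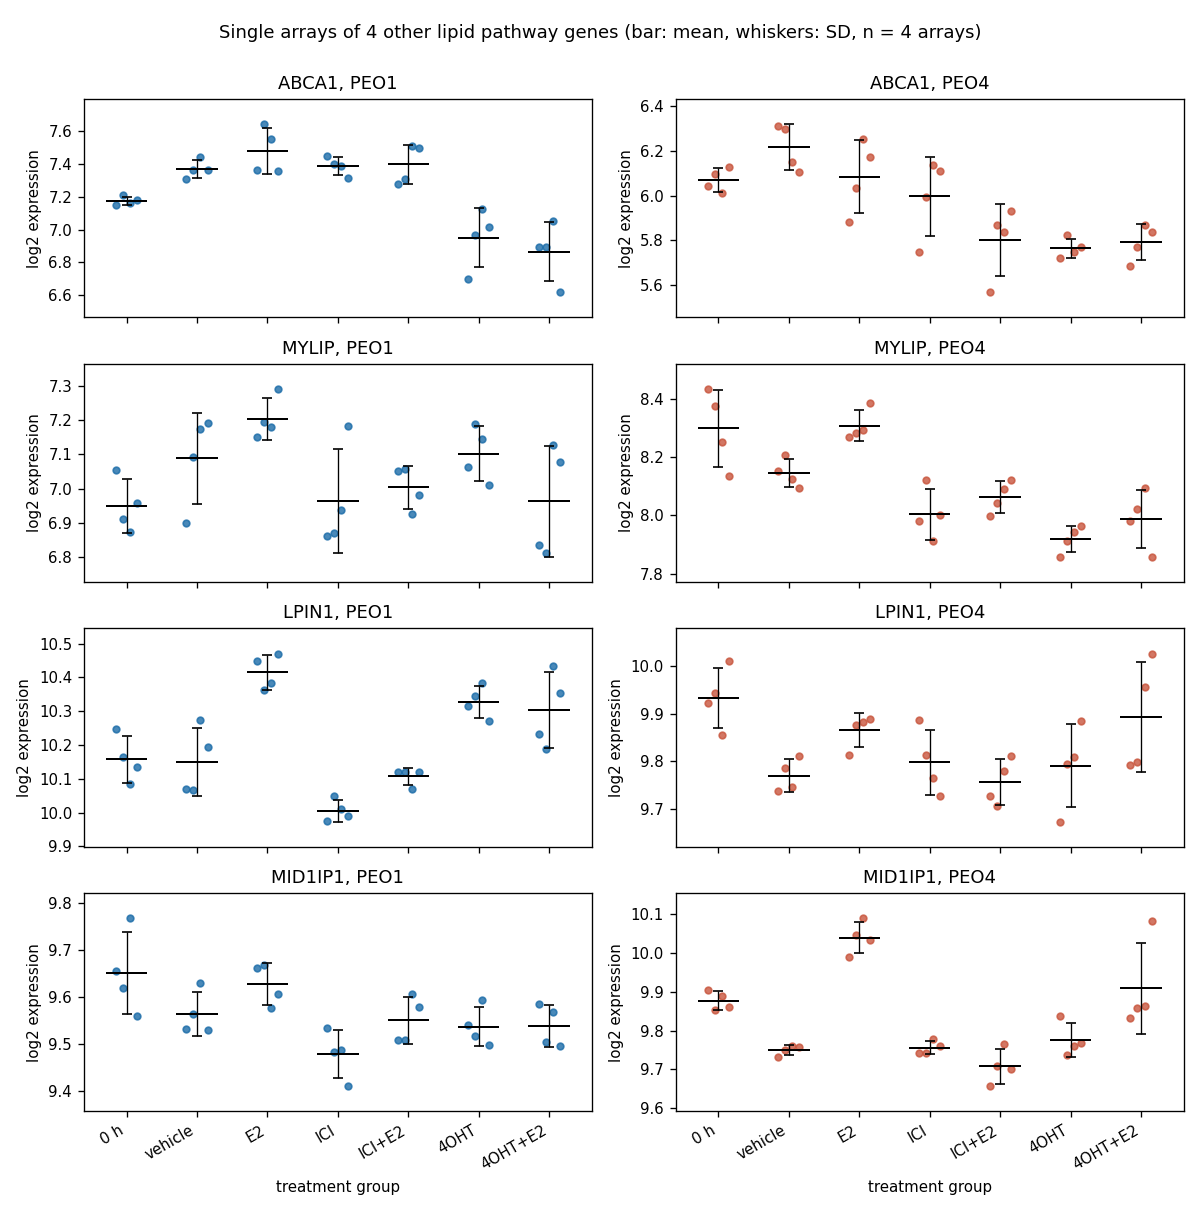
Log2 level of ABCA1, MYLIP, LPIN1 and MID1IP1 (y axis) on each array, by treatment group (x axis), in PEO1 and PEO4. Points are single arrays, bars are group means and whiskers are SD, n = 4. The ABCA1 arrays with 4OHT lie at 6.70 to 7.13 in PEO1 and 5.72 to 5.82 in PEO4, below the vehicle arrays of the same line.

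With E2 in both groups ABCA1 fell as well, by 0.61 in PEO1 (adjusted p = 7.85e-06) and by 0.29 in PEO4 (adjusted p = 0.0308). The PEO4 call was lost without E2 replicate 3 (0.145) or 4 (0.108) or 4OHT+E2 replicate 1 (0.108) or 2 (0.0759). It was also lost in 2 of 9 alternative fits, with adjusted p up to 0.121. ABCA1 was also lower with 4OHT than with ICI in PEO1, with differences of -0.44 without E2 (adjusted p = 0.00221) and -0.53 with it (0.000265). MYLIP, a ubiquitin ligase that takes lipoprotein receptors off the cell surface, fell in PEO4 with 4OHT+E2 against E2 by 0.32 (adjusted p = 0.000549). Its falls by 0.23 with 4OHT alone in PEO4 (adjusted p = 0.0201) and by 0.24 with 4OHT+E2 in PEO1 (0.0356) were lost without 1 or another array, with adjusted p up to 0.0807 and 0.142. MYLIP also fell with ICI+E2 against E2 in PEO4, by 0.25 (adjusted p = 0.0204), a call lost without E2 replicate 4 (0.0866) or ICI+E2 replicate 1 (0.0956) or 2 (0.0683) and after quantile normalization (0.126).

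The remaining sterol-handling calls with 4OHT alone in PEO1 were falls of TMEM97, an NPC1-binding protein (-0.15, adjusted p = 0.0107), of the lysosomal lipase LIPA (-0.15, 0.0462) and of the oxysterol-binding protein OSBP (-0.12, 0.0467). LIPA and OSBP lost their calls without single arrays, and these 3 lost them after quantile normalization. With 4OHT+E2 against E2 in PEO1, TMEM97 fell by 0.13 (adjusted p = 0.013), a call lost without E2 C (0.0586) and after quantile normalization (0.0887). HADHA, a subunit of fatty acid oxidation, fell by 0.19 (adjusted p = 0.0482), but lost its call in 7 of 8 fits without 1 array, with adjusted p up to 0.147. In this comparison 0 of the 15 sterol-handling genes rose and 3 fell, against 4.26% and 8.48% of all genes.

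Of the 15 genes that handle fatty acids, E2 raised 1 in each line and lowered 0, where 2.09% of all genes were called in PEO1 and 2.12% in PEO4. LPIN1, a phosphatidate phosphatase that is also a target of SREBF1, stood at 10.07, 10.07, 10.27 and 10.19 in PEO1 vehicle and at 10.45, 10.36, 10.38 and 10.47 with E2, without overlap (0.26 ± 0.05, adjusted p = 0.00239). This call was lost in 1 of 9 alternative fits (adjusted p = 0.053). With ICI+E2 against E2 LPIN1 fell by 0.31 (adjusted p = 0.00028). It rose with 4OHT alone against vehicle as well, to 10.31, 10.34, 10.38 and 10.27, by 0.18 (adjusted p = 0.036), with groups that just overlapped. That call was lost without vehicle A (0.124) or B (0.111) or 4OHT B (0.0867) or C (0.105). LPIN1 was also higher with 4OHT than with ICI, by 0.32 (adjusted p = 0.000286), and with 4OHT+E2 than with ICI+E2, by 0.20 (0.0271), the latter lost in 5 of 8 fits without 1 array, with adjusted p up to 0.0944.

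MID1IP1, which activates acetyl-CoA carboxylase, stood at 9.73, 9.75, 9.76 and 9.76 in PEO4 vehicle and at 9.99, 10.05, 10.09 and 10.03 with E2 (0.29 ± 0.05, adjusted p = 0.000139). With ICI+E2 it fell against E2 by 0.33 (adjusted p = 3.02e-05). With 4OHT+E2 it was higher than with ICI+E2, by 0.20 (adjusted p = 0.00686), a call lost in 1 of 10 alternative fits (0.076). The E2 responses of LPIN1 and MID1IP1 were not shown to differ between the lines (-0.17 and 0.23 for PEO4 minus PEO1, adjusted p = 0.672 and 0.0751).

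Of the 15 sterol-handling genes, E2 called 0 in PEO1 and 1 in PEO4 by limma, against 2.09% and 2.12% of all genes. At an unadjusted p under 0.05, 2 were higher and 0 lower in each line. Over all 11963 genes these counts were 688 and 692 in PEO1 and 671 and 395 in PEO4. SCARB1, a receptor for high-density lipoprotein, ranged from 7.57 to 7.69 over the PEO4 vehicle arrays and from 7.79 to 7.91 with E2, without overlap (0.23 ± 0.06, adjusted p = 0.047). It fell with ICI+E2 against E2 by 0.26 (adjusted p = 0.0222). The first call was lost in all 8 fits without 1 array, with adjusted p up to 0.157, and the second in 4 of 8, up to 0.119. With the mean of its probe sets the E2 difference was 0.07 (adjusted p = 0.752).

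At 3 h in vehicle against 0 h, 3 of the 15 sterol-handling genes rose in PEO1 and 0 fell, against 5.79% and 1.64% of all genes. CH25H, which makes an oxysterol that restrains SREBF activation, went from 5.98, 6.36, 6.28 and 6.34 to 6.74, 6.76, 6.85 and 6.84 (0.56 ± 0.10, adjusted p = 0.000795), and TMEM97 rose by 0.20 (adjusted p = 0.000632). LIPA rose by 0.15 (adjusted p = 0.0463), a call lost in 6 of 8 fits without 1 array, with adjusted p up to 0.155. In PEO4, VLDLR, a lipoprotein receptor, was the 1 call, a fall by 0.40 (adjusted p = 0.00577). Its response differed between the lines by -0.48 for PEO4 minus PEO1 (adjusted p = 0.0363), a call lost in 8 of 16 fits without 1 array, with adjusted p up to 0.123.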

How the data were processed

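RNA of PEO1 and PEO4 cells was read on 56 arrays, and the authors deposited log2 expression values made with RMA, per the submitters' processing notes, whose version is not given in the sources used here. RMA values hold no detection calls. The titles of the PEO4 4OHT arrays say Tam, which the series text defines as 4-hydroxytamoxifen. Of 22277 probe sets, 62 were controls, 19064 had 1 symbol, 1043 several and 2108 none, and 19052 were matched to RefSeq. Each of 11963 genes was read on its probe set with the highest mean.

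limma 3.58.1 in R 4.3.3 was fitted per line on 28 arrays with 7 group means (21 residual degrees of freedom), and differences between lines on all 56. The Benjamini-Hochberg threshold was 0.05, intervals are 95%, and the scripts were tested on simulated data. The number of arrays limits the precision. All called genes of the list are named; of each other list, up to 4 called genes per comparison by smallest adjusted p. The genes and lists were chosen with earlier results of these data known. Alternatives were another variance model, a filter on the lowest 40 percent of genes, all or averaged probe sets, quantile normalization, a replicate block, array weights, the compared groups alone, and arrays left out. Some called genes of the other lists were of low signal and have no value with the filter. They were ABCA1 in both lines, CH25H and MYLIP in PEO1, and VLDLR and SCARB1 in PEO4. Their calls were not tested with it. No array was identical to another.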

Additional observations from a re-analysis of the deposited data

Results flagged for a closer look

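Of 378 sets of 4 arrays (27 genes in 14 groups), 18 held an array whose gap to its nearest neighbour exceeded Dixon's critical share of the range. Chance gives about 1 in 20.

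Among the sterol enzymes in PEO1 the outlying arrays were MVK with ICI+E2 C (9.12), FDPS with 4OHT+E2 B (9.63), MSMO1 with 4OHT B (9.97) and HSD17B7 with ICI+E2 A (9.92). In PEO4 they were MVD with 4OHT 3 (7.05), SQLE in vehicle 2 (11.82) and with ICI 1 (11.43), SC5D in vehicle 4 (10.39) and DHCR7 in vehicle 1 (9.77). Of the 18, 2 fall on the PEO4 arrays of uneven RNA quality: SQLE with ICI 1 and INSIG2 with 4OHT+E2 4.

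Among the regulators they were INSIG1 in PEO1 vehicle C (10.96), INSIG2 in PEO1 0 h D (9.48) and in PEO4 4OHT+E2 4 (10.60), and SREBF1 in PEO1 E2 C (9.12). Among the fatty acid genes they were ACLY in PEO1 vehicle B (12.48) and E2 D (12.38), ACACA in PEO1 ICI+E2 B (10.57) and PEO4 ICI+E2 4 (10.42), and FASN in PEO1 4OHT C (9.73). INSIG1 in vehicle C is the highest of its 4 controls, and INSIG2 with 4OHT+E2 4 is the lowest of its 4 arrays.

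The response of HSD17B7 to 3 h in vehicle differed between the lines by -0.28 in the test of the difference.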

How the results depend on the processing

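None of the 444 refitted values of called members and 0 of the 518 of other pathway genes changed direction. The cause of each change below was not tested. Numbers are members called.

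With 4OHT minus vehicle, PEO1 gave 1 member, but 4 with the trend and robust variance, 6 without the lowest 40 percent of genes (MVD drops out), 3 with averaged probe sets, 4 after quantile normalization and 3 with array weights. PEO4 gave 2, but 1 with averaged probe sets and 6 with array weights, the compared groups alone, both poor arrays left out, or the ACTB covariate. The difference between lines was 0, but 1 with averaged probe sets, array weights, both poor arrays left out, or the ACTB covariate.

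With 4OHT+E2 minus E2, PEO1 gave 4, but 7 with the filter or averaged probe sets and 2 with the compared groups alone. PEO4 gave 4, and 3 with averaged probe sets or the compared groups alone, 5 with array weights and 6 with the covariate. For vehicle minus 0 h, PEO1 gave 4, and 3 with quantile normalization or the compared groups alone and 6 with the filter, averaged probe sets or array weights. With 4OHT minus ICI, PEO1 gave 1, but 3 with the trend or the filter, 2 with averaged probe sets, 4 with quantile normalization or array weights and 0 with the compared groups alone. PEO4 gave 1, but 2 with the trend, the filter, averaged probe sets or both poor arrays left out, 6 with array weights, 0 with the compared groups alone and 3 with the covariate. With 4OHT+E2 minus ICI+E2, PEO1 gave 3, but 1 with all probe sets or the compared groups alone. PEO4 gave 1, but 2 with the filter, the compared groups alone or the covariate, 6 with array weights and 3 with both poor arrays left out.

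In PEO4, vehicle minus 0 h gave 2, but 1 with averaged probe sets and 6 with array weights. Array weights also gave 4 for ICI minus vehicle, 3 for ICI+E2 minus ICI and 1 for 4OHT+E2 minus 4OHT (NPC1), each 0 otherwise, and 2 for the difference between lines with ICI. The difference between lines for vehicle minus 0 h was 1, but 0 with the compared groups alone.

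Leaving out each replicate in turn gave, in PEO1, 3 to 4 for vehicle minus 0 h, 1 to 4 for 4OHT minus vehicle, 0 to 1 for ICI+E2 minus E2, 3 to 5 for 4OHT+E2 minus E2, 0 to 3 for 4OHT minus ICI and 1 to 3 for 4OHT+E2 minus ICI+E2. In PEO4 it gave 2 to 3 for vehicle minus 0 h, 0 to 1 for ICI minus vehicle, 2 to 4 for 4OHT+E2 minus E2 and 0 to 3 for 4OHT minus ICI. The difference between lines for vehicle minus 0 h gave 0 to 1.

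Whether equal replicate labels mark arrays handled together is not known. Of the same-label pairs, 29 of 84 in PEO1 and 31 of 84 in PEO4 correlated over 0.1, and 8 and 11 of 28 arrays correlated best with their own label. The median correlation of same-label pairs was 0.04 in PEO1 and 0.06 in PEO4, against -0.01 in each line for pairs of different labels. With the replicate block PEO1 4OHT+E2 minus ICI+E2 gave 2, PEO4 4OHT minus vehicle 3, and vehicle minus 0 h kept 4 in PEO1.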
